A study of Rattus norvegicus with 2 samples.

Results

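Genes named Tmem encode proteins for which membrane-spanning segments were predicted before a function was known. They were measured here in RNA pulled down with P180, a ribosome-binding protein of the endoplasmic reticulum (ER) membrane also called RRBP1. Every row of the deposited table whose gene name is Tmem with a number, and at most a letter and further digits after it, was taken. There were 220 such rows among 25628 genes, of which 154 had at least 10 counts summed over both libraries and are described below, out of 11468 genes that met this minimum. Of the other 66, 57 had no count in either library and 9 had 1 to 9 counts. Just inside the minimum lay Tmem114 and Tmem159, each with 10 counts with P180 and none with GFP alone, and just outside it lay Tmem150b and Tmem30c, each with 6 counts with P180 and none with GFP alone. The rule used gene names and this minimum, not the difference between the libraries.

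The number in a Tmem symbol records the order of naming and not kinship, although letters after a shared number usually mark related genes. The proteins have in common only the predicted segments, and those studied since sit in the ER, the nuclear envelope, the Golgi, lysosomes, the cell surface, cilia or mitochondria. Membrane proteins of the secretory route are as a rule inserted while they are made, by ribosomes docked on the ER. Nuclear-encoded proteins of mitochondrial membranes are as a rule made in the cytosol and imported afterwards. P180 is known in other cells as a receptor that holds ribosomes and some mRNAs at the ER.

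The samples were rat primary cortical neurons that expressed either P180 joined to GFP with a biotin acceptor tag (P180-GFPbio) or, as control, that same tagged GFP without P180 (GFPbio). Streptavidin beads collected the tagged protein with the RNA that stayed bound, and that RNA was sequenced. The age of the animals, the days in culture and the way the constructs were delivered were not given for these cultures in the sources used here. Of each condition 1 library was analysed. They are named below as the P180 and GFP libraries, and their counts as those with P180 and with GFP alone. The differences below have no replicate check here and carry no p-value, and they set 1 library against another rather than one condition against the other.

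The P180 library held 6298343 counts and the GFP library 8428358, spread over 13407 and 9345 genes. Counts were divided by size factors of 0.846 and 1.18 to give scaled counts, and a gene was called higher or lower when its scaled counts differed at least 2-fold. Intervals in parentheses after a fold are exact 95% counting intervals and cover counting error only. A gene without a count in a library was set to 3 counts there, so that its fold is a lower bound, followed by the counting limit nearest to 1. Rrbp1, the gene of P180 itself, had 2541 counts with P180 and 1334 with GFP alone, 2.66-fold higher (2.49 to 2.85). Whether transcripts of the P180 construct added to this row was not tested. The row for the tag, which both constructs carry, had 63981 and 190058 counts. The markers of neurons had a summed level of 7327 CPM (counts scaled to the library total) with P180 and 7888 CPM with GFP alone. Of these 10 genes 1 was higher and 1 lower, where 40.6% of all genes were higher and 19.9% lower. Markers of astrocytes stood at 9777 and 2358 CPM, with 8 of 10 genes higher and Aldh1l1 and Slc1a2 at 0 in the GFP library. Of 8 markers of dividing cells 6 were higher, and of 8 of the oligodendrocyte lineage 4 were higher and 1 lower. Among the higher ones Ccnb1, Cdk1, Mki67, Mbp and Sox10 were at 0 in the GFP library and are called higher by construction. All 8 microglial markers were at 0 in the GFP library, 3 of them also in the P180 library (Itgam, P2ry12 and Tmem119, the last therefore among the 66 Tmem genes below the minimum), and the other 5 had 86 counts together with P180. The part of these other cell types in the results below was not tested. In RNA pulled down from a culture of mixed cells, more cells of a type, more RNA per cell and greater recovery with P180 cannot be told apart.

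More Tmem genes were higher than lower in the P180 library. Of the 154, 79 were at least 2-fold higher (51.3%), where 40.6% of all genes were, and 22 were at least 2-fold lower (14.3%), where 19.9% of all genes were. The other 53 differed by less than 2-fold. On the log2 scale, after adding 1 scaled count on each side, the median ratio was 1.07 for the Tmem genes and 0.45 for all genes. Together the members took 65762 counts in the P180 library, 1.04% of its total (95% exact binomial interval 1.04 to 1.05), and 56723 in the GFP library, 0.673% (0.667 to 0.679). These intervals cover counting error only, and the shares depend on what else each library held. Mitochondrially encoded genes took 7.31% of the P180 library and 16.6% of the GFP library, and the tag took 1.02% and 2.25%. Part of the gap between the members' shares therefore reflects these other rows. When the counting error of each gene was taken into account, the lower limit was at least 2-fold for 69 members (36.2% of all genes reached this) and the upper limit was at least 2-fold lower for 18 (14.7% of all genes). For 16 members the interval held a ratio of 1 (13.1% of all genes). Among members counted in both libraries the log2 ratio ran from -3.33 to 5.57, and the plot of scaled counts shows more points above the diagonal than below it.

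**Figure D1:**
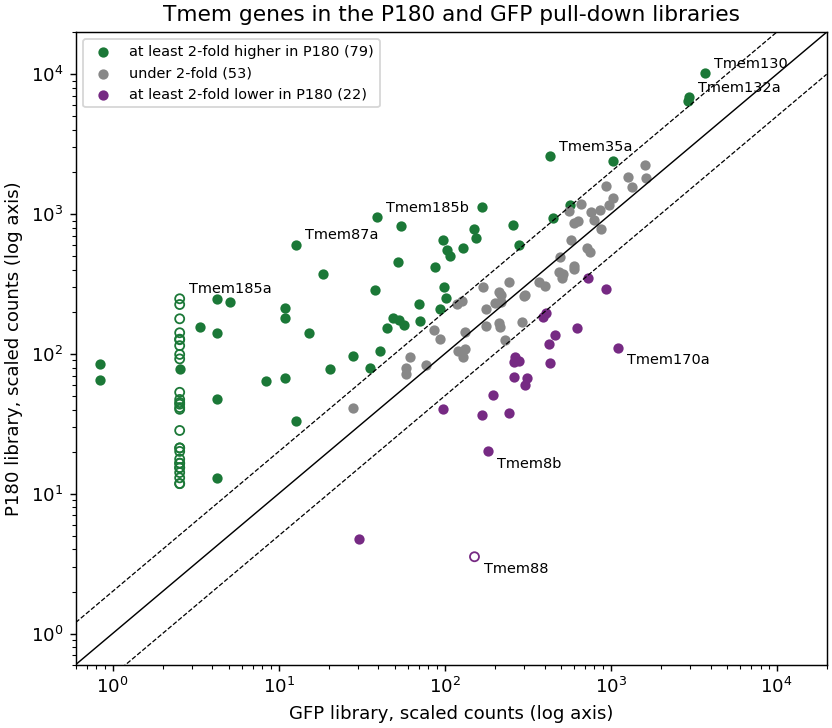
Scaled counts of the 154 Tmem genes in the GFP library (x axis, log scale) and the P180 library (y axis, log scale). The solid line marks equal values and the dashed lines 2-fold differences, and open circles are genes at 0 in a library, drawn at 3 counts. The 79 green genes are at least 2-fold higher with P180 and the 22 purple ones at least 2-fold lower.

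Part of the count of higher members comes from genes that the GFP library did not list. It had no count for 28 members (18.2%, against 20.4% of all genes), and every one of these is called higher by construction. The P180 library had no count for 1 member, Tmem88 (1.05% of all genes had none). Among members with 20 to 49 counts in the P180 library, 7 of 14 had none in the GFP library, close to the 45.0% of all genes in that range. Among the 9 members with 20 to 49 counts in the GFP library, 0 had none in the P180 library, where 4.69% of all genes did. When counts were required in both libraries, 51 of 125 members were higher (40.8%, 25.6% of all genes) and 21 lower (16.8%, 24.0% of all genes), with a median log2 ratio of 0.48 for the members and 0.00 for all genes. The share of members called higher thus lay above the share of all genes with and without these rows, although the count itself depends on them.

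The difference also varied with the mean scaled count. Below a mean of 30, 22 of 23 members were higher, but so were 82.5% of all genes. Between 30 and 100, 21 of 28 were higher (49.6% of all genes) and 2 lower (21.9%). Between 100 and 300 the members stood near the background, with 17 of 53 higher (27.6% of all genes) and 14 lower (26.4%), and their median log2 ratio of 0.20 was close to that of all genes, -0.01. At a mean of 300 and over, where no member lacked a count, 19 of 50 were higher (38.0%, against 716 of 3764 genes) and 5 lower (19.7% of all genes). In that last range the median log2 ratio was 0.48 for the members and -0.04 for all genes, and the members were also spread more widely, with an SD of 1.59 across genes against 1.34. Over all members with a mean of at least 100, 36 of 103 were higher (22.8% of all genes) and 19 lower (22.6%).

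**Figure D2:**
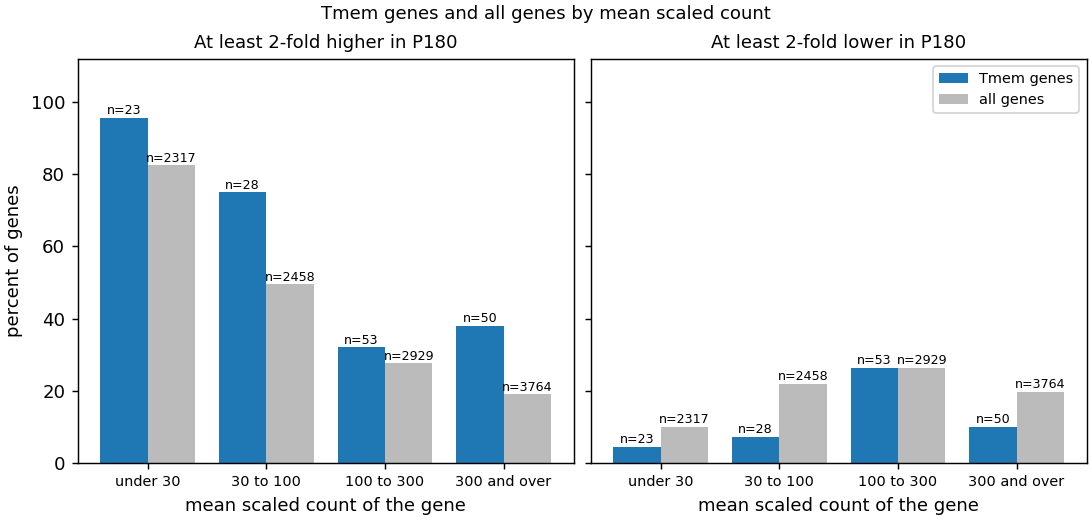
Percent of Tmem genes (blue) and of all genes (grey) that passed 2-fold upwards (left) or downwards (right) with P180, by mean scaled count of the gene, with the number of genes above each bar. At 300 and over 38.0% of the Tmem genes were higher and the bar of all genes is lower, whereas between 100 and 300 the bars lie close together.

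Among the 10 members with the highest mean scaled count, 5 were at least 2-fold higher and 0 lower, where 716 of the 3764 genes whose mean reached 300 were higher and 741 lower. Tmem130 had 8628 counts with P180 and 4388 with GFP alone, 2.75-fold higher (2.65 to 2.85). Tmem132a, of a family of proposed adhesion proteins, had 5829 and 3507 counts, 2.32-fold higher (2.23 to 2.42). Tmem59, a Golgi protein that affects glycosylation of the amyloid precursor protein, had 5422 and 3437 counts (2.20-fold, 2.11 to 2.30), and its relative Tmem59l had 2033 and 1230 (2.31-fold, 2.15 to 2.48). All 4 had intervals wholly above 2-fold with these size factors, but when the libraries were instead scaled by their totals without mitochondrially encoded genes and the tag (EGFP_avitag), Tmem132a stood at 1.97-fold, Tmem59 at 1.87-fold and Tmem59l at 1.96-fold, and 2 of the 10 members were at least 2-fold higher. Tmem35a stood further out, with 2193 and 508 counts, 6.03-fold higher (5.47 to 6.66). It encodes the ER chaperone NACHO, which assists assembly of nicotinic acetylcholine receptors. The remaining 5 differed by less than 2-fold. Tmem145 had 1339 and 1110 counts (1.69-fold, 1.56 to 1.83), Tmem97, the sigma-2 receptor of the ER, 1554 and 1503 (1.44-fold), and Tmem50a 1915 and 1914 (1.40-fold). Tmem178b had 1313 and 1580 counts (1.16-fold), and Tmem33, an ER protein that binds reticulons, had 1525 and 1925 (1.11-fold, 1.03 to 1.18). Counts of different genes were not compared as levels.

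Members known to reside in the ER or nuclear envelope were divided. Of 26 measured, 10 were at least 2-fold higher (38.5%, 40.6% of all genes) and 5 at least 2-fold lower (19.2%, 19.9% of all genes). Their median log2 ratio of 0.51 was near the 0.45 of all genes. However, 2 of the 26 were at 0 with GFP alone (7.69%), against 20.4% of all genes. When both libraries had counts, 33.3% of 24 were higher (25.6% of all genes), with a median of 0.40 (all genes 0.00). At a mean of at least 100, 7 of 23 were higher (30.4%, 22.8% of all genes) and 5 lower (22.6% of all genes). The median was then 0.31 (all genes -0.03). Whether this list differs from all genes was not tested. Tmem41b, a lipid scramblase needed for autophagosome formation, had 958 counts with P180 and 198 with GFP alone, 6.76-fold higher (5.79 to 7.92). The trimeric intracellular cation channels that balance charge during calcium release were both higher, Tmem38a with 485 and 153 counts (4.43-fold, 3.69 to 5.35) and Tmem38b with 66 and 24 (3.84-fold, 2.38 to 6.41). Tmem259, or membralin, a part of ER-associated degradation, had 576 and 182 counts (4.42-fold, 3.74 to 5.25), and the cation channel Tmem109 had 353 and 104 (4.74-fold, 3.80 to 5.96).
Nuclear envelope proteins were among the higher ones. Tmem120a, of the nuclear envelope and ER, had 691 and 65 counts (14.9-fold, 11.5 to 19.5), and Tmem209 had 242 and 45 (7.51-fold, 5.45 to 10.6). Tmem201, of the inner nuclear membrane, had 151 counts and none in the GFP library, at least 70.3-fold higher (counting limit 56.5). Tmem39a, an ER protein that limits autophagy, had 78 and none (at least 36.3-fold, limit 28.8). Tmem43, of the inner nuclear membrane, went the other way without reaching the threshold, with 450 and 891 counts, 1.42-fold lower (1.26 to 1.59).
Of the 5 lower ER and nuclear envelope members, the lowest ratio was that of Tmem170a, which promotes ER sheets. It had 93 counts with P180 and 1316 with GFP alone, 10.1-fold lower (8.20 to 12.6). The nuclear envelope protein Tmem53 had 57 and 369 (4.63-fold lower, 3.50 to 6.24), and Tmem94, linked to magnesium transport into the ER, had 31 and 200 (4.62-fold lower, 3.15 to 6.98). The O-mannosyltransferase Tmem260 had 43 and 233 (3.88-fold lower, 2.79 to 5.50), and the ubiquitin ligase Tmem129 had 80 and 313 (2.80-fold lower, 2.18 to 3.63). Near no difference lay Tmem147, a subunit that joins the Sec61 translocon, with 985 and 1149 counts (1.20-fold higher, 1.10 to 1.31), and Tmem214 with 909 and 1026 (1.24-fold). Tmem208, of an ER targeting route, had 1003 and 788 (1.78-fold, 1.62 to 1.95), and Tmem203 had 203 and 150 (1.89-fold, 1.52 to 2.35), just under the threshold.

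Of 20 members of the Golgi, endosomes, lysosomes and vesicles, 10 were higher (50%, 40.6% of all genes) and 3 lower (15.0%, 19.9% of all genes), with a median log2 ratio of 0.73. Scaled by totals without mitochondrially encoded genes and the tag, 6 were higher (30%, 37.4% of all genes), since Tmem59, Tmem59l, Tmem9 and Tmem115 came to lie under 2-fold. In the main scaling 2 of the 20 were at 0 with GFP alone (10%), against 20.4% of all genes. When both libraries had counts, 44.4% of 18 were higher (25.6% of all genes). At a mean of at least 100, 7 of 15 were higher (22.8% of all genes) and 2 lower (22.6% of all genes). Whether this list differs from all genes was not tested. Besides Tmem59 and Tmem59l, the Golgi proteins Tmem87a and Tmem87b stood out. Tmem87a had 513 counts with P180 and 15 with GFP alone, 47.8-fold higher (28.7 to 86.0), and Tmem87b had 552 and 116 (6.65-fold, 5.43 to 8.19). Tmem115, of the Golgi, had 506 and 330 counts (2.14-fold, 1.86 to 2.47), and Tmem9, of endosomes and lysosomes, had 982 and 672 (2.04-fold, 1.85 to 2.26), the member closest to the threshold from above. Tmem230, a protein of trafficking vesicles, had 130 and 53 (3.43-fold, 2.47 to 4.81), and Tmem127, an endosomal and lysosomal tumour suppressor, had 137 and 67 (2.86-fold, 2.12 to 3.89).
Several others differed by less than 2-fold. The manganese transporter Tmem165 had 658 and 1029 counts (1.12-fold lower, 1.01 to 1.24), and Tmem30a, a subunit of lipid flippases, had 221 and 354 (1.15-fold lower). The lysosomal protein Tmem106b had 279 and 289 (1.35-fold higher), the lysosomal potassium channel Tmem175 had 89 and 142 (1.14-fold lower), and Tmem163, a zinc transporter of synaptic vesicles, had 234 and 252 (1.30-fold higher). The 3 lower members were Tmem167b (75 and 332 counts, 3.17-fold, 2.46 to 4.13), Tmem251, needed to tag lysosomal enzymes (34 and 116, 2.44-fold, 1.65 to 3.69), and the lysosomal protein Tmem74 (156 and 465, 2.13-fold, 1.78 to 2.57).

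Of 12 members of the cell surface 9 were higher (75%, 40.6% of all genes) and 1 lower (8.33%, 19.9% of all genes). Their median log2 ratio was 2.45 (all genes 0.45). Only 4 of them had a mean of at least 100, and 3 of these were higher and 0 lower (22.8% and 22.6% of all genes). With totals lacking mitochondrially encoded genes and the tag as the scaling, 7 were higher (58.3%, 37.4% of all genes), without Tmem132a and Tmem63b. Tmem63b, a mechanosensitive cation channel, had 789 counts with P180 and 533 with GFP alone (2.07-fold, 1.85 to 2.31), and Tmem150c, proposed to take part in mechanosensitive currents, had 706 and 305 (3.23-fold, 2.82 to 3.71). Tmem47, of cell junctions, had 892 and 661 (1.89-fold, 1.70 to 2.09). Tmem132a, given above, was another of the 9. Of the rest, 4 had none in the GFP library: Tmem100 with 120 counts, Tmem63c with 107, Tmem150a, which recruits a lipid kinase to the plasma membrane, with 84, and Tmem132b with 40. Over the 7 that were counted in both, the median was 1.22 on the log2 scale (all genes 0.00). The lower one was Tmem88, an inhibitor of Wnt signalling, with no count with P180 and 179 with GFP alone, at least 42.7-fold lower (counting limit 34.4). In RefSeq's GRCr8 annotation it overlaps Naa38, which had 403 and 477 counts, so the counts of these neighbours may not be independent.

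Members of mitochondria had the lowest median of the 5 groups. Of 13, 4 were higher (30.8%, 40.6% of all genes) and 3 lower (23.1%, 19.9% of all genes), with a median log2 ratio of -0.21. Tmem186, an assembly factor of respiratory complex I, had 51 counts with P180 and 360 with GFP alone, 5.05-fold lower (3.76 to 6.91). Tmem135 had 294 and 865 (2.11-fold lower, 1.84 to 2.41), and Tmem223, which helps to make cytochrome oxidase, had 166 and 480 (2.07-fold lower, 1.73 to 2.48). Under 2-fold lay Tmem160 (879 and 901 counts, 1.36-fold higher), the calcium efflux protein Tmem65 (259 and 478, 1.32-fold lower), the ATP synthase assembly factor Tmem70 (222 and 360, 1.16-fold lower) and Tmem14c, needed for heme synthesis (92 and 156, 1.21-fold lower). The 4 higher members all had a mean scaled count under 100. They were Tmem126a (54 and 10 counts, 7.54-fold, 3.80 to 16.6), Tmem177 (28 and 15, 2.61-fold, 1.35 to 5.25), Tmem11, a shaping protein of the inner membrane (89 and 48, 2.59-fold), and Tmem242 (12 and none). With a mean of at least 100, where 22.8% of all genes were higher and 22.6% lower, 0 of 8 mitochondrial members were higher and 3 were lower. The Slc25a carriers, another set mostly of mitochondria, went the other way at that mean. Of 19 such carriers 8 were higher (42.1%) and 3 lower (15.8%), with a median log2 ratio of 0.65, against -0.41 for the 8 members.

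The 8 members of the ciliary transition zone, the gate at the base of the cilium, split into 4 that were higher and 4 that were not, with 2 of these lower, where 40.6% of all genes were higher and 19.9% lower. Tmem17 had 318 counts with P180 and 22 with GFP alone (20.2-fold higher, 13.1 to 32.7), and Tmem67, or meckelin, had 120 and 5 (33.5-fold, 14.0 to 105). Tmem231 had 66 and 3 counts (30.7-fold, 10.1 to 153), and Tmem80 had 72 and 1, with a ratio of 101 (17.5 to 4028). By contrast Tmem107 had 115 and 547 (3.40-fold lower, 2.78 to 4.20) and Tmem218 had 74 and 311 (3.01-fold lower, 2.33 to 3.93), while Tmem237 (132 and 256) and Tmem216 (70 and 91) differed by less than 2-fold. No member had a log2 ratio between 0.10 and 4.26, so the median of 2.18 describes none of them. Tmem67, Tmem231, Tmem80 and Tmem216 had a mean scaled count between 30 and 100, where 49.6% of all genes were higher. Of the 4 members with a mean of at least 100, 1 was higher and 2 lower (22.8% and 22.6% of all genes).

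**Figure D3:**
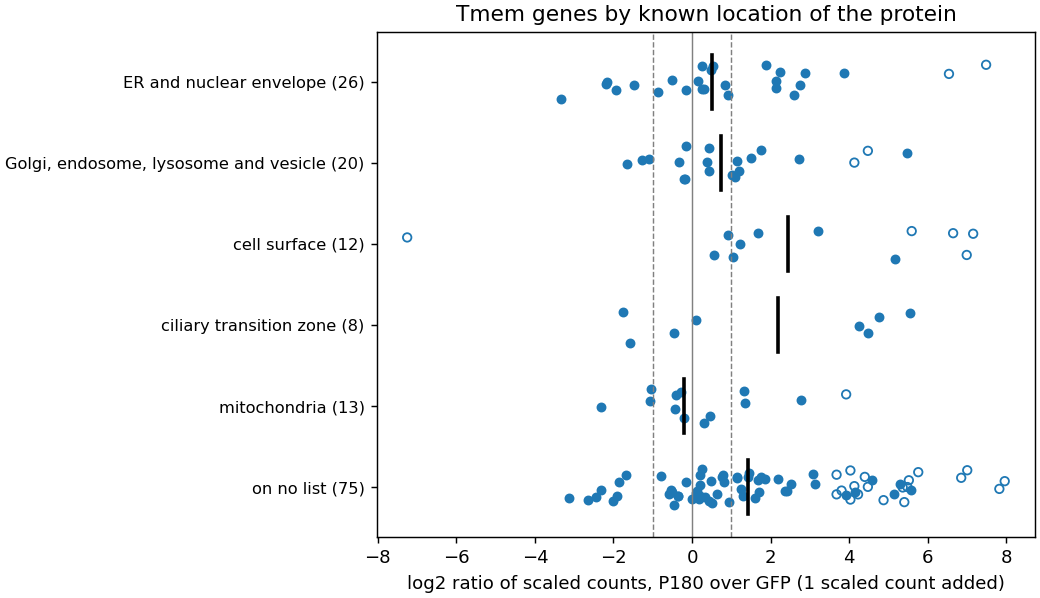
Log2 ratio of scaled counts, P180 over GFP, of each Tmem gene (1 scaled count added), by the known location of its protein, with the number of genes in parentheses. Black bars are medians, dashed lines mark 2-fold, and open circles are genes at 0 in a library. The median is lowest for mitochondria (-0.21) and highest for the cell surface (2.45), and every group spans both sides of 0.

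The other 75 members were on no list of location. Of these 42 were higher (56.0%, 40.6% of all genes) and 8 lower (10.7%, 19.9% of all genes), and the median log2 ratio was 1.42 (all genes 0.45), or 0.57 over the 56 with counts in both libraries. Tmem184b, needed for normal axon degeneration in mice, had 210 counts with P180 and 5 with GFP alone (58.7-fold higher, 24.7 to 183). Tmem234 had 200 and 6 (46.6-fold higher). Its annotated span overlaps Eif3i, which had 433 and 523 counts, and the counts of these overlapping genes cannot be fully separated here. With none in the GFP library, Tmem98 had 191 counts, at least 88.9-fold higher (counting limit 71.6). It encodes an inhibitor of the cleavage of MYRF, a myelin regulator. The 8 markers of the oligodendrocyte lineage summed to 619 CPM with P180 and 295 CPM with GFP alone, with Mbp and Sox10 at 0 in the GFP library, Mog at 0 in both and Cspg4 lower with P180 (21 and 148 counts), and their part in the value of Tmem98 was not tested. Tmem8b had 17 and 217 counts, 9.14-fold lower (5.58 to 16.0), Tmem169 had 73 and 511 (5.01-fold lower, 3.91 to 6.49), Tmem263 had 130 and 738 (4.06-fold lower, 3.37 to 4.93), and Tmem108, or retrolinkin, a neuronal protein of endosome trafficking, had 99 and 504 (3.64-fold lower, 2.93 to 4.57). The remaining 25 differed by less than 2-fold, among them Tmem131 (1099 and 1216 counts, 1.26-fold higher, 1.16 to 1.37) and Tmem229b (416 and 583 counts, a ratio of 0.997).

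Genes that share a Tmem number often differed in ratio. In all, 26 numbers were carried by more than 1 member, 55 genes together. In 13 of the 26 groups every gene had the same call, 11 of them higher and 2 under 2-fold, and in 4 groups 1 gene was higher and the other lower. Of all 154 members 51.3% were higher and 14.3% lower (all genes 40.6% and 19.9%). Whether genes sharing a number agreed more or less often than unrelated members was not tested. The median difference between the highest and lowest log2 ratio of a group was 3.03, or 2.29 over the 18 groups whose genes all had counts in both libraries. Closest together were Tmem50a and Tmem50b (log2 ratios 0.48 and 0.52), Tmem59 and Tmem59l (1.14 and 1.21), and Tmem176a and Tmem176b, which had 97 and 108 counts with P180 and none with GFP alone. Tmem176a and Tmem176b lie next to each other and overlap on opposite strands in GRCr8, so they may share reads if strand was not used in counting.
The 4 opposed groups were those of Tmem170a and Tmem170b, Tmem161a and Tmem161b, Tmem179 and Tmem179b, and Tmem74 and Tmem74b. Tmem170b had 57 counts with P180 and 13 with GFP alone (6.13-fold higher, 3.31 to 12.2), against the 10.1-fold lower Tmem170a. Tmem161a had 179 and 13 (19.2-fold higher, 11.0 to 36.8), whereas Tmem161b had 58 and 310 (3.83-fold lower, 2.88 to 5.16). Tmem179 had 469 and 122 (5.37-fold higher, 4.39 to 6.61), whereas Tmem179b had 32 and 289 (6.46-fold lower, 4.48 to 9.63). Tmem74b had 131 and 4 (45.8-fold higher, 17.5 to 170), whereas Tmem74 was lower.
Other groups differed in degree. Tmem185a had 210 counts and none in the GFP library (at least 97.8-fold higher, limit 78.8), and Tmem185b had 803 and 46 (24.4-fold, 18.1 to 33.6). Tmem41a had 152 and 13 (16.3-fold, 9.27 to 31.4) beside the 6.76-fold of Tmem41b. Tmem120b had 177 and 111 (2.23-fold, 1.75 to 2.85) beside the 14.9-fold of Tmem120a. In the Tmem132 family Tmem132e had 55 counts and 1, a ratio of 76.8 (13.2 to 3089), and Tmem132c had 35 and 33 (1.48-fold, 0.894 to 2.46). The mitochondrial neighbours Tmem126a and Tmem126b, which lie side by side in GRCr8, differed too, with Tmem126b at 81 and 152 counts (1.34-fold lower, 1.02 to 1.78). Since reads that matched several places equally well were discarded, closely similar relatives may have lost counts.

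**Figure D4:**
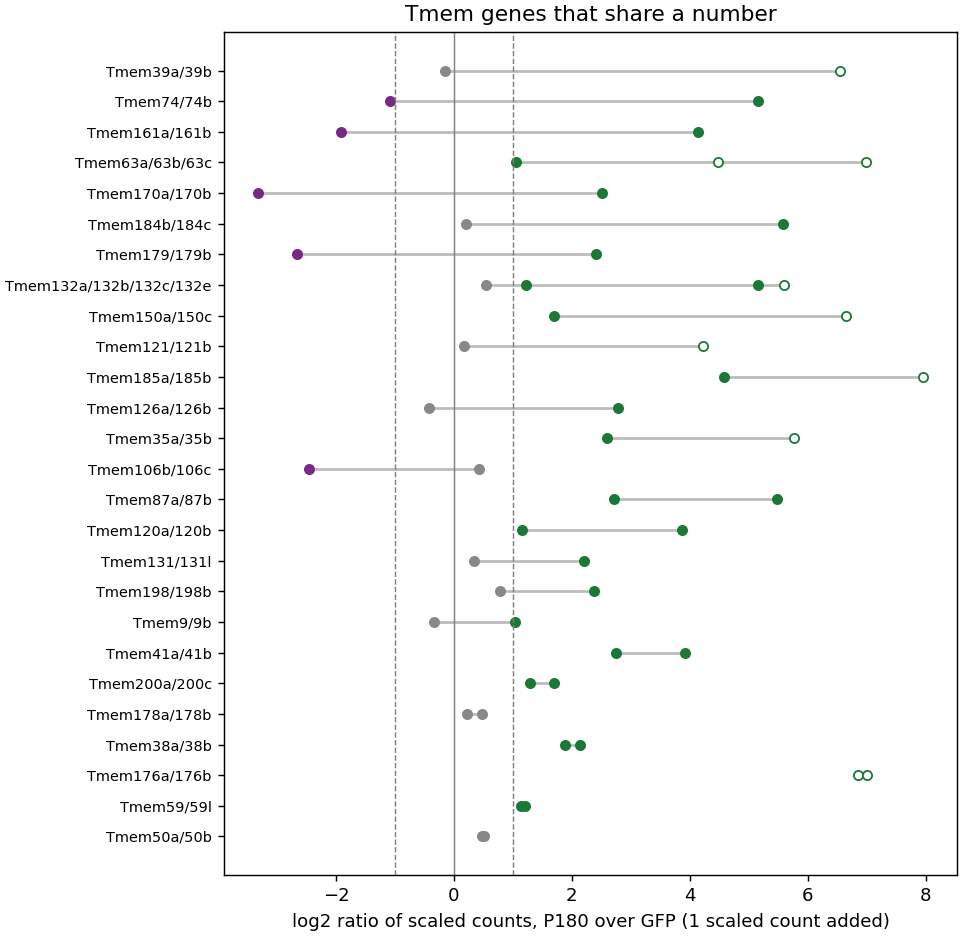
Log2 ratio of scaled counts, P180 over GFP (x axis, 1 scaled count added), of the 55 Tmem genes that share their number with another member, 1 row for each of the 26 numbers. Green points are at least 2-fold higher, purple at least 2-fold lower, grey under 2-fold, and open points had no count in the GFP library. In 4 rows the line joins a purple and a green point.

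Genes that were once called Tmem and now carry another symbol were set beside the members. RefSeq's synonyms gave 54 such genes in the table, of which 36 met the minimum. Of these 13 were higher (36.1%, 40.6% of all genes) and 8 lower (22.2%, 19.9% of all genes), with a median log2 ratio of 0.55 (all genes 0.45). The members had 51.3%, 14.3% and 1.07. With counts in both libraries 9 of 32 renamed genes were higher (25.6% of all genes) and 8 lower (24.0% of all genes). Those with the highest mean scaled count were Saraf, a regulator of store-operated calcium entry once called Tmem66 (2856 and 2650 counts, 1.51-fold higher, 1.43 to 1.59), Pgap4, which modifies lipid anchors (2251 and 2196, 1.43-fold), and the autophagy protein Vmp1 (1756 and 900, 2.73-fold, 2.51 to 2.96). Other families of membrane proteins lay nearer to the members. Of 54 tetraspanin, Zdhhc, Mfsd and Tm9sf genes 27 were higher and 2 lower (median 1.14), and of 30 Slc25a carriers, which reside mostly in the mitochondrial inner membrane, 15 were higher and 4 lower (median 0.93). The 54 include Mfsd13a, which is also among the 36 renamed genes. With 1 library of each condition the differences between these sets were not tested.

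Some members cannot be read independently of their neighbours. By symbol, 151 of the 154 matched a RefSeq gene of the GRCr8 assembly, and 57 of these overlapped another annotated gene. For 17 the overlapping gene itself had at least 10 counts. Tmem150a overlaps Rnf181 on the opposite strand, and Rnf181 had a like pattern, with 192 counts with P180 and 1 with GFP alone. Tmem63b overlaps Mrpl14, with 1800 and 3134 counts, and Tmem161a overlaps Slc25a42, with 26 and 51. A further row, named Tmem14a with a suffix and therefore outside the rule, had 154 and 200 counts while Tmem14a itself had none.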

How the data were processed

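The authors deposited raw counts per gene. Per the paper's methods, libraries were made by an adapted CEL-Seq2 protocol, which captures 3' ends and amplifies linearly. Reads were demultiplexed with je-suite, and STARsolo 2.7.10a mapped them to mRatBN7 and counted them, discarding reads that matched several places equally well. Not given in the sources used here are the annotation release, the use of strand in counting and whether copies were collapsed by molecular identifier. If copies were not collapsed, the counting intervals are too narrow. The table holds 2 further columns of per-sample counts whose names read as a second library of each condition. They match none of the labelled samples used here and entered no step, so whether they bear out any difference was not examined. In all 92 spike-in rows (2 and 9 counts) were left out.

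A gene needed 10 counts or more in all. Size factors came from the median of ratios. Folds are ratios of scaled counts, with intervals from the Clopper-Pearson limits of the P180 share of each gene's counts. A 0 was set to 3 counts (0.476 and 0.356 CPM). Log2 ratios add 1 scaled count to both. edgeR 4.0.16 (R 4.3.3) gave TMM factors for an alternative; no test across genes could be run with 1 library a group. Python 3.11.15, numpy 2.4.6, pandas 2.3.3, scipy 1.17.1 and matplotlib 3.10.9 were used, and the steps were tested on simulated data.

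Members, lists of location and markers came from gene names and general knowledge, and were chosen with earlier results of these data known. Named genes were the 10 with the highest mean scaled count, the 10 with the highest lower and the 10 with the lowest upper limit of the ratio, the 5 with most counts among those at 0 in the GFP library, the one at 0 in the P180 library, the 3 of each list with the highest mean, genes sharing a number and those nearest a threshold. Other members of the lists, and overlapping genes, were named after their values were seen. A planned comparison by predicted hydrophobic segments was not run, since protein sequences were not used here. Genome positions in mRatBN7 were not used, and RefSeq's GRCr8 table served for names, neighbours and overlaps only.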

Additional observations from a re-analysis of the deposited data

How the results depend on the processing

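With 1 library a group no replicate could be left out. No paired analysis was possible because the groups share only 1 replicate number. Of 126 summary values computed under the alternatives, 110 stayed within 1.5 times (counts) or within their counting or binomial interval (medians and shares). The count of members at least 2-fold lower was among these under every alternative, and no scaling moved the count of higher members by over 1.5 times. The filter on counts moved most of the rest. The 79 higher members became 51 with counts in both libraries and 36 once a mean of 100 scaled counts was required, by the construction of these filters. The median log2 ratio of the members became 0.55 with a minimum of 50 counts (all genes 0.11), 0.48 with counts in both libraries (all genes 0.00) and 0.34 with a mean of at least 100 (all genes -0.03). Library totals from which the mitochondrially encoded genes and EGFP_avitag had been taken lowered, as the scaling, the median of all genes, which fell by 0.23, and left the members 0.62 above it, as in the main scaling. This scaling left 71 members higher (46.1%, 37.4% of all genes) and 24 lower (15.6%, 24.0% of all genes). Under it 8 members between 2.04-fold and 2.32-fold higher came under 2-fold (Tmem59, Tmem59l, Tmem132a, Tmem63b, Tmem9, Tmem115, Tmem120b and Tmem250), and Tmem199 and Tmem62 became lower. Among values of single genes 48 of 534 moved beyond their counting interval and 0 of those at least 2-fold changed sign, 26 of the 48 under that scaling, 19 with 5 scaled counts added and 3 with library totals. Under the scaling without these genes the ER and nuclear envelope members had a median of 0.27 and those of the Golgi, endosome, lysosome and vesicle list 0.50. With a mean of at least 100 these medians were 0.31 and 0.43, that of the cell surface was 1.13, and 0% of the mitochondrial members were higher. With that filter the median of the ciliary members changed sign, to -1.02 over 4 genes. The Golgi, endosome, lysosome and vesicle median was 0.43 both with a minimum of 50 counts and with counts in both libraries, and the cell surface median was 1.45 and 1.22. Thinning the GFP library to the total of the P180 library left 79 members higher.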
